A study of Mus musculus with 42 samples.

Results

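A set of 7 nuclear factors of mRNA 3′ end formation was followed at the RNA level: Pcf11 and Clp1, the poly(A) polymerase genes Papola and Papolg, and Pabpn1, Rbbp6 and Ssu72. They were chosen by name, as these 7 of the 13481 mouse genes in which a polyadenylation site (PAS) was assigned. Their RNA-seq values were the entries carrying these gene symbols. For 3′READS, a sequencing method that reads the 3′ ends of poly(A)+ RNAs, all PASs inside the span of each gene, introns included, and up to 4000 nt downstream on its strand or to the next gene were taken. This gave 46 PASs of the 61054 that fell in a single protein-coding gene.

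The study followed alternative polyadenylation in mouse cells under arsenic stress, with 38 libraries of 3′READS and 4 of RNA-seq, all from lines labelled C57BL/6 in strain. NIH3T3, a mouse embryonic fibroblast line, was left untreated (NT), exposed to 250 µM sodium arsenite for 1 h (AS), or allowed to recover from it for 4, 8, 12 or 24 h (RC4, RC8, RC12 and RC24). Total RNA was sampled in NT and AS as replicates 1, 2 and 4. Replicate 4 also held the single RC libraries and is called the time course. In 4 cultures (NT at 0 h, NT at 4 h, AS and RC4), newly made RNA was labeled with 50 µM 4-thiouridine (4sU) for 1 h and separated from the unlabeled flow-through (Ft). Cytoplasm of NT and AS NIH3T3 cells, 2 replicates each, gave an input RNA and an RNA fraction precipitated with an antibody to TIA1, an RNA-binding protein of stress granules. C2C12, a mouse myoblast line, was used proliferating (C2C12P) and after differentiation (C2C12D), with 2 total RNA libraries of each without arsenite. Cytoplasmic RNA of C2C12P and of C2C12D was sampled once each in NT at 0 h, NT at 4 h, AS and RC4. RNA-seq was of total NIH3T3 RNA, with 1 library each of NT at 0 h, AS, NT at 4 h and RC4. The study describes replicates of total RNA, of C2C12 and of the TIA1 experiment as biological, and the labels do not say how the cultures were separated. The 2 untreated cultures of the 4sU experiment differ in time (0 h and 4 h).

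An mRNA ends where a multiprotein complex recognizes a hexamer such as AATAAA in the nascent RNA, cuts downstream of it and adds a poly(A) tail. PCF11 and CLP1 form cleavage factor II, and PCF11 also binds the C-terminal domain of RNA polymerase II. PAPOLA and PAPOLG are nuclear poly(A) polymerases, PABPN1 binds the growing tail, RBBP6 takes part in cleavage, and SSU72 is a phosphatase of the C-terminal domain associated with the same complex. A PAS in an intron truncates the protein, whereas PASs in the 3′UTR differ only in the length of the untranslated tail.

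The PASs on which the results below turn lie in Pcf11, Papola, Rbbp6 and Ssu72. Most of them are shown as the 30 nt that end at the PAS, 5′ to 3′ on the strand of the gene in the mm9 build, with the signal hexamer or variant found by search in capitals.
Pcf11 intron 1 (chr7:99816694-99816723, minus strand): aaaatttgtgAATAAAacatataaaatatg
Pcf11 early 3′UTR (chr7:99792767-99792796, minus strand): gtaaattataAATAAAaaatatttttgcta
Pcf11 main 3′UTR (chr7:99792222-99792251, minus strand): catacatgtAATAAActgaatgatgaacaa
Papola intron 9 (chr12:107047890-107047919, plus strand): attacAATAAAattgattgtagacactgaa
Papola last intron (chr12:107074426-107074455, plus strand): ttggaatATTAAAgatgccttgtaataaaa
Papola stop codon (chr12:107075043-107075072, plus strand): ttcAATAAAactgagactgaatcggtaaaa
Rbbp6 first exon (chr7:130114406-130114435, plus strand): aagtttataAATATAcatatattgagagtg
Rbbp6 intron 3 (chr7:130122503-130122532, plus strand): ttcttgcAATAAAaaattgtttggagtgta
Ssu72 intron 2 (chr4:155091219-155091248, plus strand): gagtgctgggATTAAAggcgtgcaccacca
Ssu72 3′UTR (chr4:155107864-155107893, plus strand): agaAATAAAgatggtttactctacagccta

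AATAAA stood within 40 nt upstream of 23 of the 30 PASs of these genes that had at least 20 reads (76.7%), against 36.8% of all 61054 PASs, which include sites of few reads. The largest number of A in the 10 genomic bases after any of the 30 was 5, so none followed a long genomic A run, the usual source of false sites. Only 1.16% of all 61054 PASs had 7 or more A there, so this does not set the 30 apart. A match of these letters is a description and does not show that the signal is used.

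The 7 genes differed widely in where their transcripts ended. In Papola (ENSMUSG00000021111.8, chromosome 12), 79.0% of all intronic and 3′UTR reads over the 38 libraries were intronic. Its most used PAS, in intron 9, held 3271 reads or 56.3% of the gene, was listed in 38 of 38 libraries, and left 836 of 2217 coding nt upstream. It is the annotated end of the short coding transcript Papola-007. A second intronic PAS in the last intron, intron 21, held 1184 reads and left 2124 coding nt upstream, so it removes only the end of the coding sequence. The most used 3′UTR PAS of Papola lay 5 nt past the last coding base, with 838 reads, and a site 2087 nt past it held 300. Total RNA of replicate 1 differed, in that the site 2087 nt past the last coding base held more reads than any other Papola site there, 53 in NT and 69 in AS.

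Pcf11 (ENSMUSG00000041328.9, chromosome 7) ended mainly in its 3′UTR, with 7757 reads at a PAS 853 nt past the last coding base and 719 reads at an earlier one 308 nt past it. Its intronic reads, 8.03% of all its reads, came from a pair of PASs in intron 1, of 636 and 171 reads, that leave 192 of 4659 coding nt upstream. Rbbp6 (ENSMUSG00000030779.8, chromosome 7) had 66.9% of its reads over all libraries at 1 3′UTR PAS and 20.1% at a PAS in the 5′UTR of its first exon, 357 nt from the start of transcription. In NT total RNA of NIH3T3 the first exon PAS instead held the most reads. These were 50 against 15 at the 3′UTR PAS in replicate 1, 155 against 30 in replicate 2 and 40 against 18 in replicate 4. A PAS in intron 3 of Rbbp6, inside the 3′UTR of the short coding transcript Rbbp6-005, held 685 reads. Ssu72 (ENSMUSG00000029038.3, chromosome 4) used 1 3′UTR PAS for 94.3% of its reads, and a PAS in intron 2 for 524 reads. The remaining genes had no intronic PAS. Clp1 (ENSMUSG00000027079.9, chromosome 2) had 1 PAS with 1264 reads. Papolg (ENSMUSG00000020273.7, chromosome 11) had 4 PASs with 513 reads. Pabpn1 (ENSMUSG00000022194.9, chromosome 14) had 3, all past its annotated end, with 2458 reads.

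The 3′READS libraries held 1048335 to 6974664 PAS reads and the RNA-seq libraries 17136953 to 25193331 coding reads. Each file leaves out PASs below 5 reads, so "not listed" means fewer than 5 reads and not absence. Within the tested comparisons, no library was a copy of another of the same condition, and other pairs of libraries were not checked. Summed levels of 6 arsenite-response genes were 94.6 to 442 reads per 1000000 PAS reads (RPM) in NT, 1049 to 9578 in AS and 10823 to 12053 in RC4 libraries of NIH3T3. In NT libraries, the summed levels of 7 measured of 8 myotube genes were 18449 to 22501 RPM in C2C12D against 76.7 to 207 in C2C12P. Those of 3 measured of 4 myoblast genes were 233 to 683 RPM in C2C12D, 77.6 to 162 in C2C12P and not listed in NIH3T3. For 7 fibroblast genes the sums were 2325 to 11147 RPM in NIH3T3, 5682 to 9883 in C2C12P and 6434 to 15407 in C2C12D. The fibroblast list thus did not separate the lines. The 3 measured of 5 markers of other cell types summed to at most 29.9 RPM in the NT libraries of both lines and the AS and RC4 libraries of NIH3T3. Because these are bulk RNAs, fewer cells of a type and less RNA per cell cannot be told apart.

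Since 3′READS gives 1 read per RNA end, levels in RPM do not scale with gene length and can be set side by side. Over the 38 libraries the medians were 78.7 RPM for Ssu72, 46.0 for Pcf11, 45.7 for Papola, 32.8 for Rbbp6, 16.3 for Pabpn1 and 9.17 for Clp1. Their ranges overlapped, so this order of medians does not hold in every library. Papolg was listed in 16 of 38 libraries. Among the 5 genes listed in all 38 libraries, Papola had the smallest ratio of highest to lowest level, 74.2 to 24.9 RPM. Pcf11 spanned 8.04 RPM in the NT library of the time course to 442 RPM in 4sU-labeled RNA of AS cells.

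Levels of Pcf11 and Pabpn1 also differed between sets of total RNA. Pcf11 was at 8.04 to 21.9 RPM in the 6 time-course libraries but at 44.9 to 87.0 in total RNA of replicates 1 and 2. Pabpn1 went the other way, at 64.2 to 99.3 RPM in the time course and 1.77 to 9.08 in replicates 1 and 2. The ranges of these library sets did not overlap for either gene, although all were total RNA of NIH3T3. The source of this difference was not tested, and levels are therefore compared within sets.

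**Figure D1:**
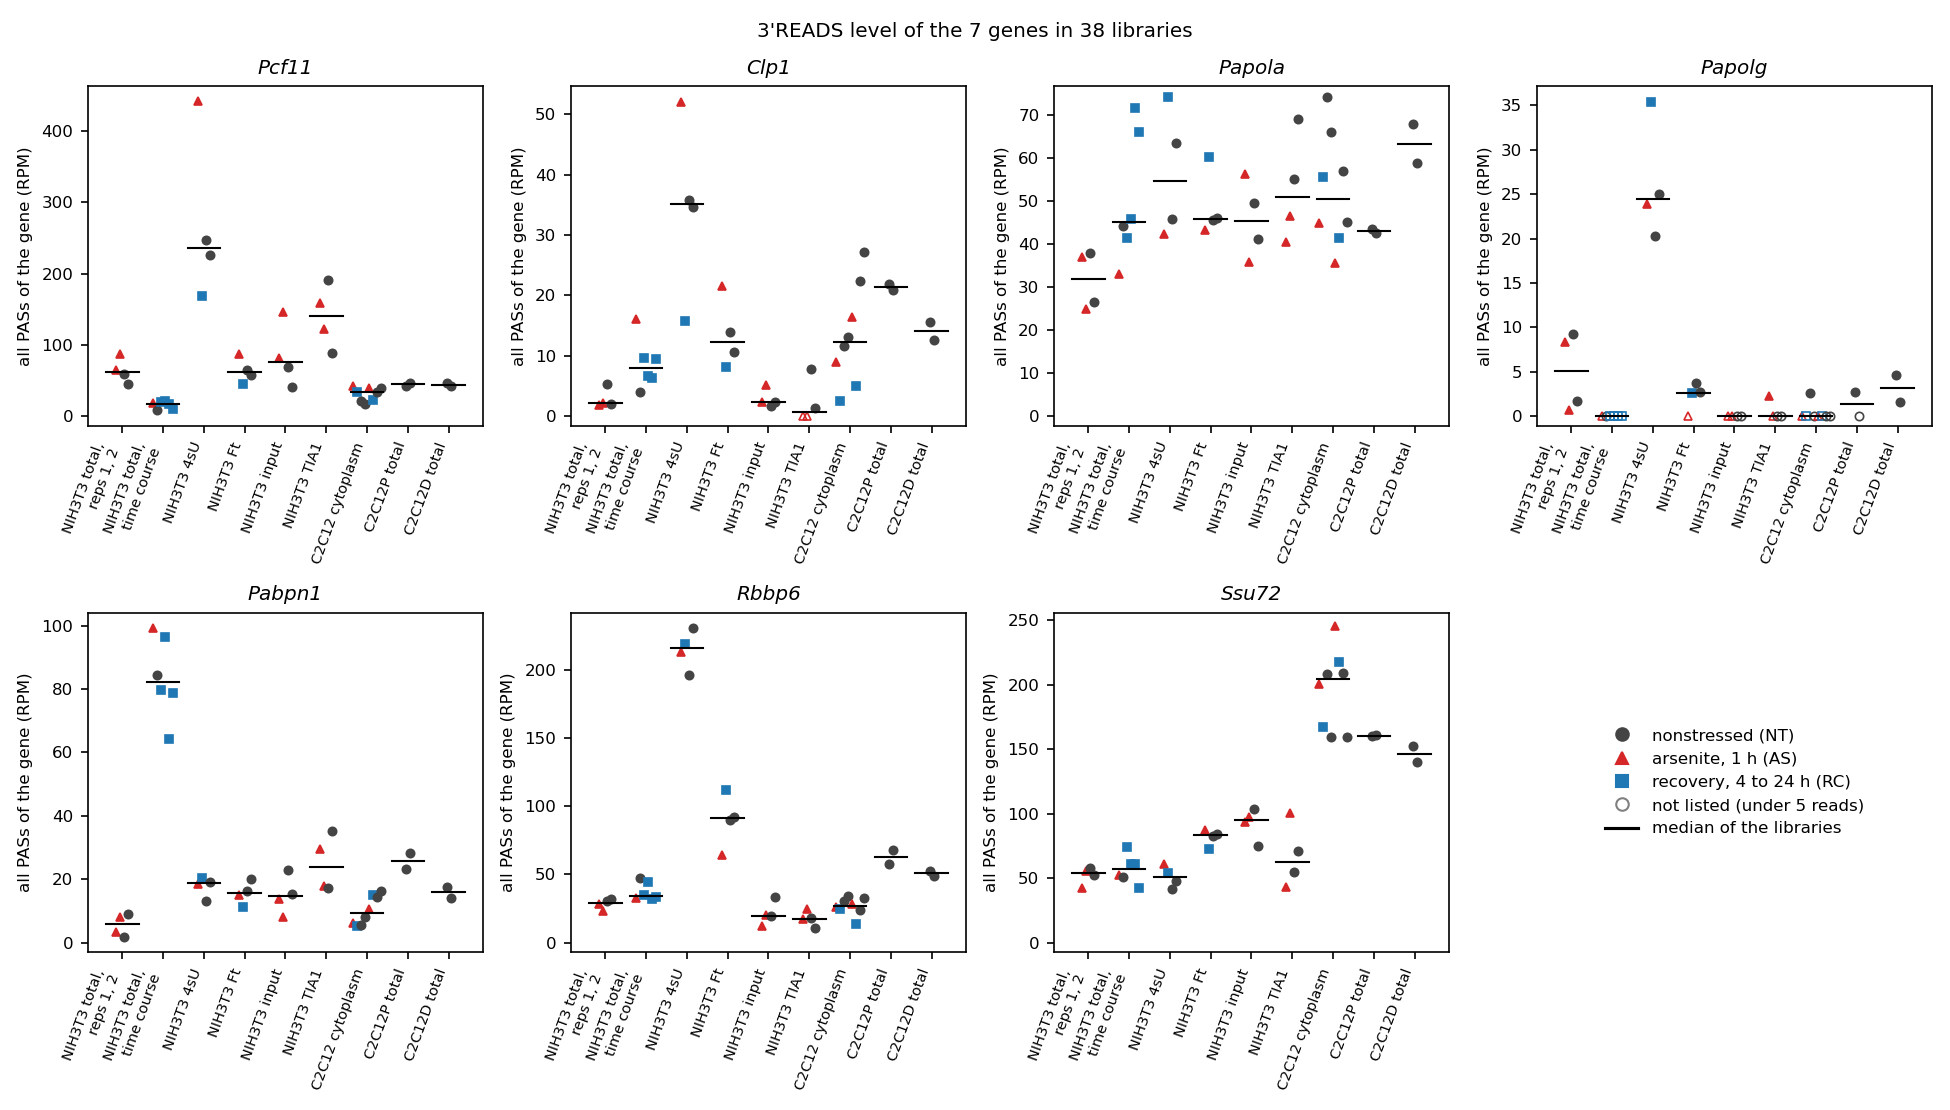
Levels of the 7 genes in RPM (vertical axis, all PASs summed) in each of the 38 libraries, grouped along the horizontal axis by kind of library, with a line at the median of the libraries. Pcf11, Rbbp6 and Papolg stand highest in 4sU-labeled RNA, and Pabpn1 stands highest in the time course.

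To learn whether arsenite changed the RNA of these factors, AS was compared with the matching NT library in 7 pairs: 3 of NIH3T3 total RNA, 2 of cytoplasmic input, and 1 each of C2C12P and C2C12D cytoplasm. Pcf11 was the 1 gene of the 7 that rose. It was at 65.5 RPM in AS against 59.8 in NT in total RNA of replicate 1, at 87.0 against 44.9 in replicate 2, and at 17.8 against 8.04 in the time course, where these were 21 and 12 reads. In the cytoplasmic input it was at 81.4 against 69.5 RPM in replicate 1 and at 146 against 40.8 in replicate 2. In cytoplasm it was at 39.1 against 34.5 RPM in C2C12P and at 42.4 against 21.9 in C2C12D. AS was thus above NT in 7 of 7 pairs, as was so for 3.76% of 8568 genes, by a mean log2 ratio of 0.78 ± 0.63 (SD, n = 7), and the rise was small in 3 of them and 1.94-fold or more in 4. In the 4sU experiment, outside this test, AS was also above NT, at 442 against 247 RPM in labeled RNA and at 87.8 against 64.7 in flow-through. Of 10124 genes with values in these 9 pairs, 2.02% were higher in AS in all 9, and Pcf11 was the 1 of the 7 genes that was.

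By edgeR's quasi-likelihood test with the pair as a block, the log2 fold change of Pcf11 was 0.72 (SE 0.18, Benjamini-Hochberg adjusted p = 0.048), with 2.44% of 8568 genes called, 1.67% up. This call stood at the edge of the threshold. It was kept without the pair of total RNA replicate 1 and lost without any 1 of the other 6, with a log2 fold change of 0.54 to 0.82 and an adjusted p of 0.0384 to 0.142. With median ratio size factors the adjusted p was 0.0507, with DESeq2 0.0205, and without the block 1.0.

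The other genes did not pass this test. Log2 fold changes were -0.38 for Rbbp6 (SE 0.15, adjusted p = 0.232), -0.29 for Papola (adjusted p = 0.356), -0.23 for Pabpn1 (adjusted p = 0.668), 0.07 for Clp1 (adjusted p = 0.967) and -0.01 for Ssu72 (adjusted p = 0.980). Papolg had too few reads to enter. Rbbp6 was lower in AS in 6 of the 7 pairs, at 12.1 to 33.1 RPM against 19.8 to 47.6, and higher in C2C12P, at 28.1 against 24.2. Papola was lower in 6 of 7, the exception being input replicate 1 at 56.3 against 49.4 RPM. In the 3 pairs of total RNA alone and with no block, edgeR called 0 of 9154 genes, 19 of them at an unadjusted p under 0.05, and DESeq2 called 0 with 28. With the replicate block 29 genes, or 0.317%, passed, none of them among these 7, and Pcf11 stood at a log2 fold change of 0.65 with an adjusted p of 0.480.

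**Figure D2:**
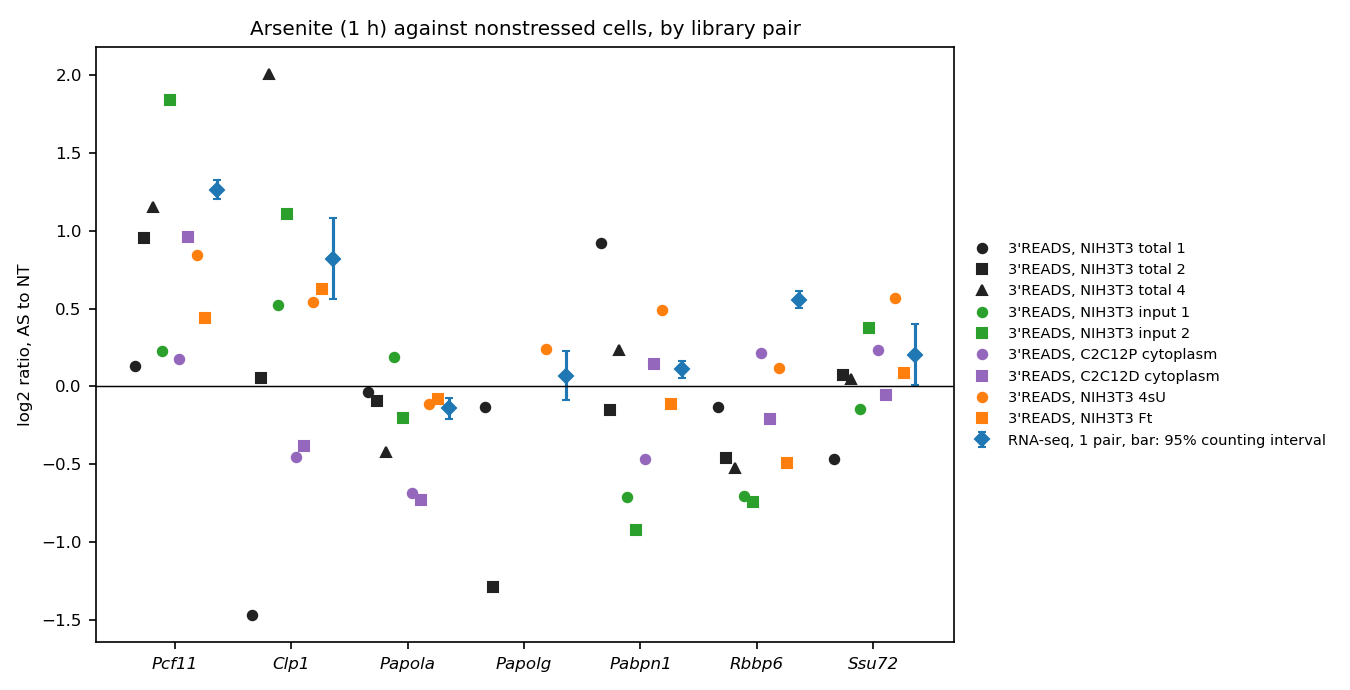
Log2 ratio of AS to NT (vertical axis) for the 7 genes (horizontal axis), 1 point per library pair of 3′READS and 1 for the RNA-seq pair, whose bar is the 95% counting interval. All points of Pcf11 lie above 0, from 0.13 to 1.84 over the 7 tested pairs, while those of the other genes fall on both sides or near 0.

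RNA-seq of NIH3T3 total RNA gave a second reading, with 1 library per condition and therefore no replicate check. Values are read counts divided by median ratio size factors, and intervals cover counting error only. Pcf11 was at 2680 in NT at 0 h and 6426 in AS, a log2 ratio of 1.26 (95% interval 1.2 to 1.32), larger than that of 98.1% of 10829 genes. It was at 2622 in NT at 4 h and 7208 in RC4, a log2 ratio of 1.46 (1.39 to 1.53). NT at 4 h and NT at 0 h differed by a log2 ratio of at most 0.32 in any of the 7 genes. At least 2-fold up, Pcf11 was 1 of 7 genes in AS, where 3.36% of all genes were. In RC4 it was 1 of 2, with Rbbp6, where 15.4% of all genes were at least 2-fold up.

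The partner of Pcf11 in cleavage factor II moved differently with time. Clp1 had a log2 ratio of 0.82 (0.56 to 1.08) in AS and of -0.86 (-1.23 to -0.50) in RC4. Rbbp6 went up in both, at 0.56 (0.50 to 0.61) in AS and 1.52 (1.47 to 1.57) in RC4. Papola was at -0.14 in AS and 0.63 in RC4, and Ssu72 at 0.20 and 0.52. Papolg and Pabpn1 were within 0.11 of 0 in both under this scaling. The RC4 values depend on the scaling: scaled to total counts (CPM) instead, the median of all genes stood 0.81 lower on the log2 scale, and the RC4 log2 ratios were 0.65 for Pcf11, 0.71 for Rbbp6, -1.67 for Clp1, -0.18 for Papola, -0.29 for Ssu72, -0.84 for Papolg and -0.79 for Pabpn1. Directions for Pcf11, Rbbp6, Clp1 and Papolg were thus the same under both scalings, those for Papola, Ssu72 and Pabpn1 were not, and in CPM none of the 7 genes was at least 2-fold up at RC4.

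**Figure D3:**
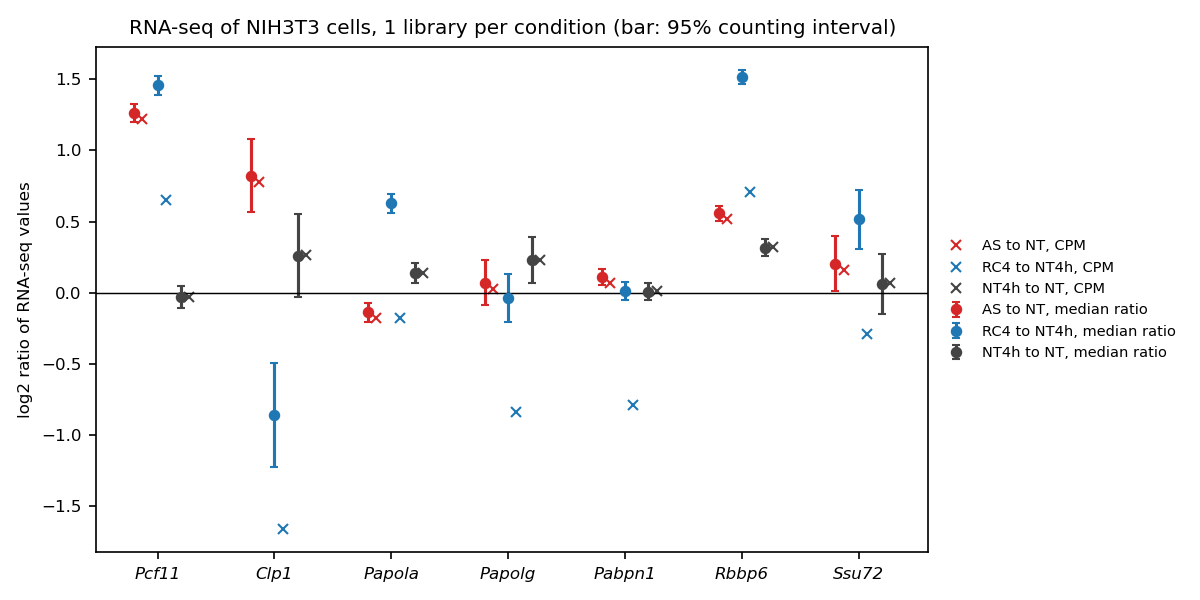
RNA-seq log2 ratios (vertical axis) of AS to NT, RC4 to NT at 4 h and NT at 4 h to NT for the 7 genes (horizontal axis), scaled by median ratio (circles, with 95% counting intervals) or as CPM (crosses). Pcf11 lies above 0 in AS and RC4 under both scalings, while Clp1 lies above 0 in AS and below it in RC4.

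3′READS had 3 pairs of RC4 and NT for a test: the time course and the cytoplasm of C2C12P and C2C12D. None of the 6 genes tested passed, with 1.41% of 8243 genes called. Clp1 was at 6.36 RPM in RC4 against 4.02 in NT in the time course, at 5.07 against 27.2 in C2C12P and at 2.49 against 13.1 in C2C12D. In the 4sU experiment it was at 15.8 against 34.6 RPM in labeled RNA and 8.13 against 10.6 in flow-through. It was thus lower in RC4 in 4 of 5 pairs, the exception being the time course, and the tested log2 fold change was -1.26 (SE 0.82, adjusted p = 0.526). Pcf11 was at 17.5 against 8.04 RPM in the time course and 34.2 against 17.8 in C2C12D, but at 22.6 against 39.98 in C2C12P (log2 fold change 0.60, adjusted p = 0.562). It was also lower at RC4 in 4sU-labeled RNA, at 169 against 227 RPM, and in flow-through of the same cultures, at 45.9 against 58.2. Pcf11 was thus lower in 3 of 5 pairs, which are of unlike cells and fractions. In the time course, of NIH3T3 total RNA as in RNA-seq, it was higher, as in RNA-seq, on 33 and 12 reads. Rbbp6 was lower in RC4 in all 3 tested pairs, at 13.4 to 32.4 RPM against 32.4 to 47.6, with a log2 fold change of -0.52 that did not pass. In the 4sU experiment it was at 219 against 231 RPM in labeled RNA and higher at RC4 in flow-through, at 112 against 92.0. Rbbp6 went up in RNA-seq, which counts coding reads only, whereas these sums hold the first exon PAS, with no coding sequence upstream. Its 3′UTR PASs alone were at 11.7 against 12.1 RPM in the time course. They were at 13.4 against 26.1 RPM in C2C12P and 22.8 against 23.5 in C2C12D. In labeled RNA they were at 185 against 172 RPM, and in flow-through at 92.0 against 55.5.

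Differentiation of C2C12 cells was compared in total RNA without arsenite, with 2 libraries of each state, a contrast in which 62% of 10079 genes passed, 32.4% up and 29.6% down. Papola rose and Pabpn1 fell. Papola was at 67.9 and 58.7 RPM in C2C12D against 43.5 and 42.6 in C2C12P, a log2 fold change of 0.72 (SE 0.14, adjusted p = 0.00041), and the call held without any 1 library (0.61 to 0.83). The rise was one of intronic ends: counting 3′UTR PASs alone, the log2 fold change was -0.60 (adjusted p = 0.169). Pabpn1 was at 17.6 and 14.2 RPM in C2C12D against 23.1 and 28.3 in C2C12P, a log2 fold change of -0.54 (SE 0.21, adjusted p = 0.0327). That call was lost with DESeq2 (adjusted p = 0.254) and without replicate 3 of either state (adjusted p = 0.219 without C2C12D replicate 3 and 0.204 without C2C12P replicate 3).

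The other members did not pass in this comparison. Clp1 was at 15.6 and 12.6 RPM in C2C12D against 21.9 and 21.0 in C2C12P (log2 fold change -0.44, adjusted p = 0.0870). Rbbp6 was at 52.6 and 49.0 RPM against 58.0 and 68.0 (log2 fold change -0.15, adjusted p = 0.361), and on 3′UTR PASs alone it fell, by 0.52 on the log2 scale with an adjusted p of 0.0069. Pcf11 and Ssu72 had log2 fold changes of 0.14 and 0.03. Papolg was near the listing limit, with a log2 fold change of 1.42 that did not pass (adjusted p = 0.164).

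The ends of the RNAs shifted between the cell states as well. In all 4 genes with intronic PASs the intronic share, that is intronic reads as a percentage of intronic and 3′UTR reads, was higher in both C2C12D libraries than in both C2C12P libraries. It was 92.0% and 91.9% in C2C12D against 75.2% and 84.4% in C2C12P for Papola, and 14.3% and 16.6% against 4.0% and 4.9% for Ssu72. For Pcf11 it was 10.7% and 17.2% against 4.3% and not listed, and for Rbbp6 12.6% and 17.9% against 3.3% and not listed. Such separation in this direction was seen in 26.4% of 1271 genes, and in the opposite direction in 37.8%, so an increase was the less common direction over all genes.

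By PAS, the Papola intron 9 site rose from 25.6 and 28.6 RPM in C2C12P to 54.5 and 48.3 in C2C12D, and its stop codon site was at 4.93 and 3.70 against 3.63 and 2.93. Ssu72 intron 2 rose from 6.47 and 7.89 to 19.2 and 18.5 RPM as its 3′UTR site went from 154 and 153 to 130 and 116. In Rbbp6 the 3′UTR site was at 58.0 and 64.6 RPM in C2C12P and 41.5 and 35.2 in C2C12D, while the intron 3 site went from not listed and 2.22 to 5.96 and 5.87. The upstream first exon site of Rbbp6 went from not listed and 1.23 to 5.19 and 6.10 RPM. These site values carry no test of their own.

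Tested over all 1350 genes with at least 10 reads of each class, edgeR called 1 gene (0.0741%) and none of the 4. The log2 changes of intronic against 3′UTR reads were 1.50 for Papola (SE 0.43, adjusted p = 0.0993), 1.96 for Ssu72 (SE 0.30, adjusted p = 0.0852), 3.25 for Rbbp6 (SE 1.05, adjusted p = 0.121) and 3.03 for Pcf11 (SE 1.22, adjusted p = 0.173), beside a median over all genes of -0.41. Limited to the 517 genes with at least 50 reads of each class, the same test called 207 genes (40%), 90 of them up (17.4%), and all 4 passed, with adjusted p of 0.0112 for Papola, 0.00072 for Ssu72, 0.0043 for Rbbp6 and 0.0117 for Pcf11. The call therefore rests on the read minimum.

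**Figure D4:**
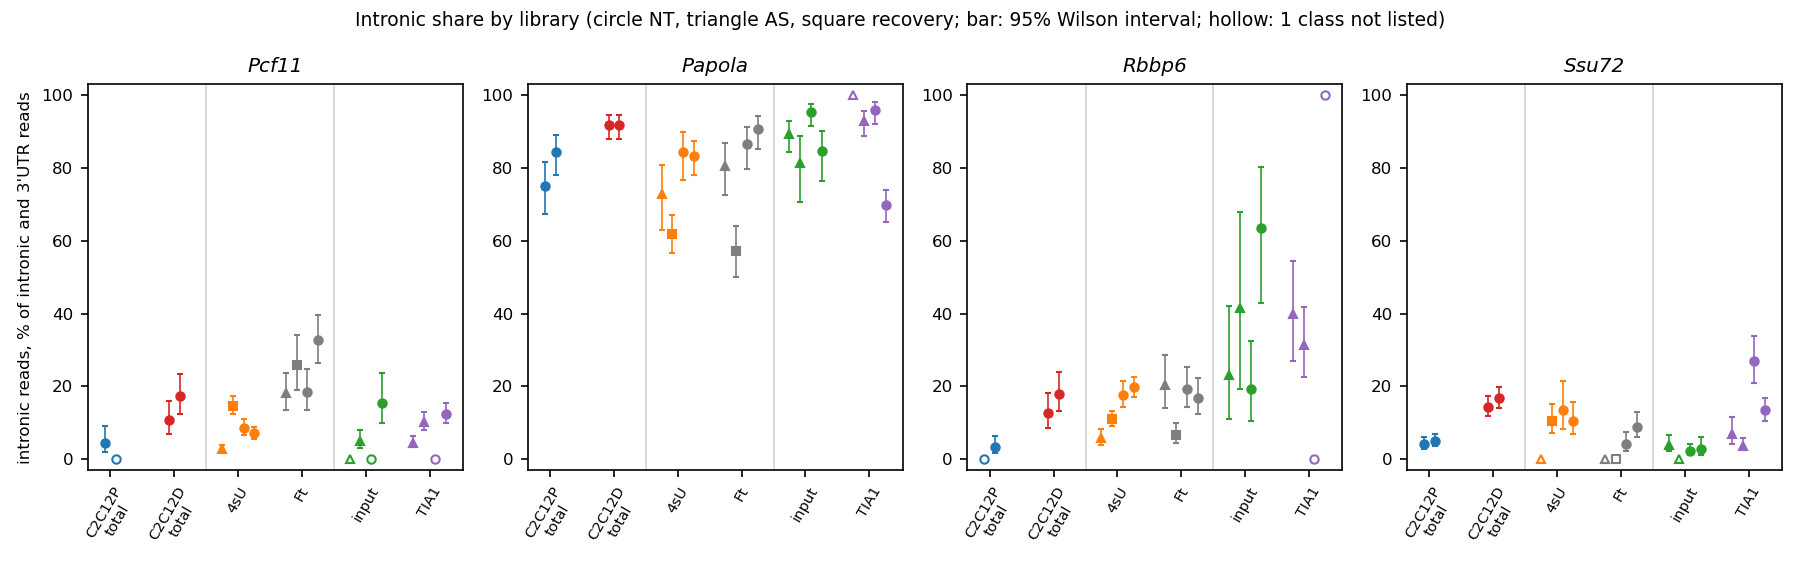
Intronic reads as a percentage of intronic and 3′UTR reads (vertical axis) for 4 genes in each library of 6 kinds (horizontal axis), with 95% Wilson intervals of the reads and hollow symbols where 1 class was not listed. Papola sits above 50% in all libraries of these 6 kinds, and C2C12D lies above C2C12P in all 4 genes.

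In recovery, Papola moved the other way. Its intronic share at RC4 against the matched NT library was 53.3% against 62.1% in the time course, 65.6% against 88.5% in C2C12P cytoplasm and 53.8% against 93.0% in C2C12D cytoplasm. In NIH3T3 it was 62.0% against 83.3% in 4sU-labeled RNA and 57.3% against 90.8% in flow-through. The share was thus lower at RC4 in 5 of 5 pairs, the drop in the time course being the smallest. Labeled RNA and flow-through came from the same cultures, so counts that hold both, here and elsewhere, are not of separate cultures alone. Among 1743 genes with values in the 5 pairs, 1.43% were lower at RC4 in all 5, and Papola and Rbbp6 were 2 of the 4 members with intronic PASs that were. For Rbbp6 the C2C12P pair stood at the listing limit.

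Both the stop codon PAS and the last-intron PAS gained on the intron 9 PAS. The stop codon PAS rose from 4.7 to 14.3 RPM in the time course, from 5.2 to 14.3 in C2C12P, from 4.6 to 23.8 in C2C12D, from 7.6 to 22.8 in 4sU-labeled RNA and from 4.2 to 22.8 in flow-through. The intron 9 PAS went from 39.98 to 22.1 RPM in C2C12P, from 55.1 to 24.9 in C2C12D, from 49.5 to 34.7 in 4sU-labeled RNA and from 33.5 to 24.1 in flow-through, but from 27.5 up to 33.9 in the time course. As a share of these 2 sites, the stop codon PAS went from 14.6% to 29.7% in the time course, 11.5% to 39.2% in C2C12P and 7.74% to 48.9% in C2C12D. It went from 13.3% to 39.6% in 4sU-labeled RNA and from 11.2% to 48.6% in flow-through. All 5 RC4 values lay above the 5 matched NT values, but for this and the next site comparison no share over all genes was taken. The last-intron PAS, as a share of it and the intron 9 PAS, was higher at RC4 in 5 of 5 pairs too, at 16.7% against 10.4% in C2C12D, 16.8% against 2.49% in 4sU-labeled RNA and 26% against 8.26% in flow-through, and at 11.1% in the time course and 18.6% in C2C12P, where it was not listed in NT. The stop codon share of the NT libraries of 0 h and 4 h was 12.6% and 11.5% in C2C12P, 8.28% and 7.74% in C2C12D, 12.38% and 13.3% in 4sU-labeled RNA and 15.7% and 11.2% in flow-through. NT total RNA of replicates 1 and 2, which has no RC4 partner, was at 37.1% and 22.9%, the first inside the range of the RC4 values and the second below it. After 1 h of AS the share was 29.8% in 4sU-labeled RNA and 21.2% in flow-through, but over the 7 tested pairs it was higher in AS in 3 and lower in 4. Later in the time course the share was 15.2% at RC8 and 11.3% at RC12, and the site was not listed at RC24.

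The model fitted over the 3 tested pairs gave the Papola intronic share a log2 change of -2.0 (SE 1.07, adjusted p = 1). That test called 0 of 1124 genes, with 8 at an unadjusted p under 0.05, and DESeq2 called 1. The Papola shift was therefore the same in direction in 5 of 5 pairs and did not pass the test over all genes. Total RNA showed how far this share varied without any treatment: the 3 NT libraries of replicates 1, 2 and 4 had intronic shares of 38.3%, 85.0% and 62.1%.

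**Figure D5:**
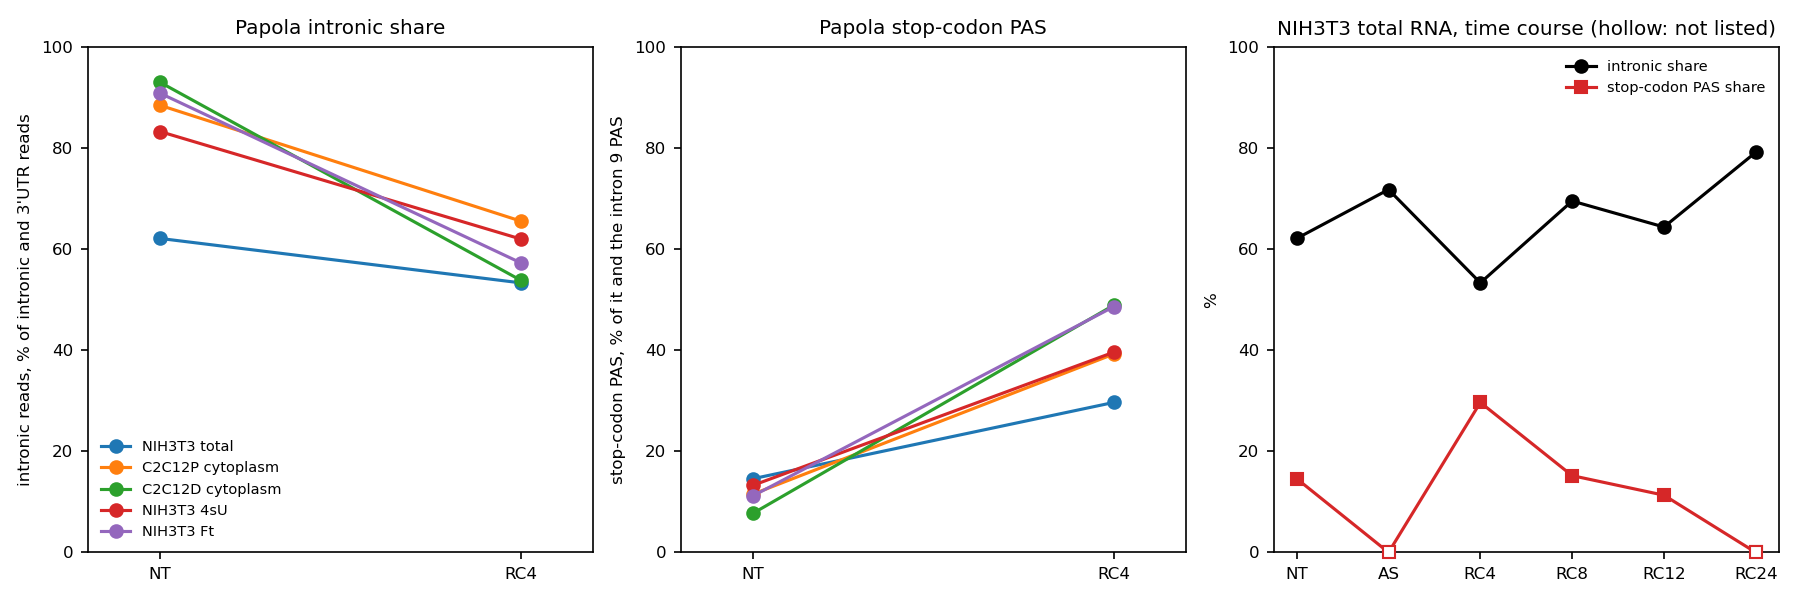
Papola in NT and RC4 libraries of 5 pairs, as the intronic share (left) and as the stop codon PAS in percent of it and the intron 9 PAS (middle), and both along the time course (right), where hollow squares mark a site not listed. The stop codon share rises from 7.74 to 14.6% in NT to 29.7 to 48.9% at RC4 and is back at 11.3% by RC12.

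Other members also changed their ends at RC4. Rbbp6 had a lower intronic share in 5 of 5 pairs, at 40.5% against 41.9% in the time course, 11.0% against 19.7% in 4sU-labeled RNA and 6.6% against 16.7% in flow-through. In C2C12 cytoplasm its intronic PASs were not listed at RC4, against 10% in C2C12P and 14.3% in C2C12D. The C2C12P pair had 5 intronic reads in NT beside 45 in the 3′UTR, and 29 3′UTR reads at RC4. An unchanged share there would fall below the listing limit of 5 reads, so that pair cannot show a drop. The time course shares were nearly equal. The first exon PAS of Rbbp6, as a share of it and the 3′UTR PAS, was also lower at RC4 in 5 of 5 pairs. It was at 52.2% against 69.0% in the time course and 7.25% against 23.3% in C2C12D. The share was 5.90% against 8.96% in 4sU-labeled RNA and 12.9% against 31.3% in flow-through, and not listed against 11.8% in C2C12P. The C2C12P pair, with 6 first exon reads in NT and 29 3′UTR reads at RC4, has the same limit. No share over all genes was taken for this site. Pcf11 used its early 3′UTR PAS more: against the main one, 545 nt downstream, it took 67.9% at RC4 and 50% in NT in the time course. In 4sU-labeled RNA the share was 22.0% against 10.2% and in flow-through 21.1% against 13.8%. In C2C12P it was 30% and in C2C12D 35.3%, where the early site was not listed in NT. The early share of Pcf11 was higher at RC4 in 5 of 5 pairs, and 16.5% of 4427 genes with 2 3′UTR PASs had their proximal PAS share higher in all 5. The relative expression difference of the distal against the proximal PAS was -4.13 on the log2 scale (SE 1.64, adjusted p = 0.625), in a test that called 0 of 4657 genes, with 369 at an unadjusted p under 0.05, and 10 with DESeq2.

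Under AS the intronic share of none of the members passed. edgeR called 0 of 2127 genes over the 7 pairs, with 54 at an unadjusted p under 0.05, and DESeq2 called 0 with 49. In the 3 pairs of total RNA with no block, edgeR called 0 of 1772, with 16 at an unadjusted p under 0.05, and DESeq2 called 0 with 29. With the replicate block edgeR called 0 with 23. The early 3′UTR PAS of Pcf11 took 14.5% to 14.9% in AS against 6.06% to 9.02% in NT in the 4sU and flow-through fractions, but over the 7 tested pairs its share was higher in AS in 5 and lower in 2. That share was not tested under AS. The distal-proximal difference took the 2 most abundant 3′UTR PASs, for Pcf11 over the 7 pairs the main one and a site 254 nt downstream. It passed in none of the 4 members tested over the 7 pairs, where 0.016% of 6240 genes did. Between C2C12D and C2C12P it passed in none of the 3 tested, where 0.056% of 5359 did. The nearest to passing was Pabpn1, whose upstream PAS took 13.2% and 15.9% of its 2 main sites in C2C12D against 24.0% and 26.1% in C2C12P (log2 change 0.97, SE 0.40, adjusted p = 0.242).

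Newly made and pre-existing RNA were compared in the untreated cultures of 0 h and 4 h, a contrast in which 49.7% of 9675 genes were called, 23.2% up and 26.5% down in flow-through. The study adjusted its ratios of flow-through to 4sU for the number of uridines in a transcript, which affects labeling and capture. No such adjustment was made here, and its effect on these values was not tested. Pcf11, Clp1, Papolg and Rbbp6 were lower in flow-through, Ssu72 was higher, and Papola and Pabpn1 did not pass. Pcf11 was at 64.7 and 58.2 RPM in flow-through against 247 and 227 in 4sU-labeled RNA, a log2 fold change of -1.80 (SE 0.18, adjusted p = 1.36e-05). Rbbp6 was at 90.3 and 92.0 RPM against 197 and 231 (log2 fold change -1.08, SE 0.17, adjusted p = 0.00025). Papolg fell by 2.66 (SE 0.42, adjusted p = 0.00024) and Clp1 by 1.37 (SE 0.29, adjusted p = 0.0018) on the log2 scale. Ssu72 was at 82.4 and 84.4 RPM against 41.4 and 47.7 (log2 fold change 1.05, SE 0.19, adjusted p = 0.00062). Papola had a log2 fold change of -0.11 (adjusted p = 0.700) and Pabpn1 of 0.31 (adjusted p = 0.440).

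The AS and RC4 cultures had 1 library of each fraction and no test, and the 5 genes that passed moved in the same direction there. Pcf11, Clp1, Papolg and Rbbp6 were below 4sU-labeled RNA in flow-through in all 4 cultures, as were 36.6% of 9305 genes, and Ssu72 was above it in all 4, as were 26% of genes. Pcf11 had the largest drop in AS, with 87.8 RPM in flow-through against 442 in labeled RNA.

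The isoforms of a gene were not divided alike between the fractions. The shares below are not adjusted for uridines, and the intronic and first exon isoforms named are shorter than those ending in the 3′UTR. The intronic share of Pcf11 was higher in flow-through than in 4sU-labeled RNA in all 4 cultures, at 18.5% against 8.5% in NT at 0 h, 32.6% against 7.1% in NT at 4 h, 18.1% against 2.6% in AS and 25.8% against 14.7% in RC4. That was so for 8.95% of 2245 genes. The tested log2 change in the untreated cultures was 1.99 (SE 0.61, adjusted p = 0.260), where edgeR called 0 of 1711 genes, with 299 at an unadjusted p under 0.05, and DESeq2 called 85. The intronic PASs of Pcf11 were not listed in any of the 8 cytoplasmic libraries of C2C12. In cytoplasm of NIH3T3 they were listed in replicate 2 of the input, at 15.5% in NT and 4.9% in AS, and in 3 of 4 TIA1 precipitates, at 4.5% to 12.3%. In Rbbp6 the first exon PAS took 12.9% to 38.8% in flow-through against 4.57% to 8.96% in labeled RNA, without overlap. For this site no share over all genes was taken.

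RNA bound to TIA1 was compared with the cytoplasmic input. Without a block, none of the 6 genes tested passed in NT, where 3.19% of 9602 genes were called, or in AS, where 0.542% were, and Papolg was not tested. Per the methods of the study, input and precipitate were parts of the same cytoplasmic extract, and with the replicate as a block 18.8% of genes were called in NT and 17.4% in AS. Pcf11 was at 192 and 88.7 RPM in the NT precipitates against 69.5 and 40.8 in input (log2 fold change 1.18, SE 0.49, adjusted p = 0.202). With the block it passed in NT, with a log2 fold change of 1.16 (SE 0.35, adjusted p = 0.0357), and was the 1 of the 6 genes to do so in NT or AS. In AS it was at 159 against 81.4 RPM in replicate 1 and at 122 against 146 in replicate 2. Clp1 was not listed in either AS precipitate and at 2.37 and 5.11 RPM in AS input. Rbbp6 was lower in the precipitate in both NT pairs, at 18.2 and 10.6 RPM against 19.8 and 33.3, and higher in both AS pairs, at 17.1 and 24.6 against 12.1 and 19.9. That difference between AS and NT did not pass (log2 1.32, SE 0.83, adjusted p = 1), nor did that of Pcf11 (log2 -0.97, SE 0.69, adjusted p = 1), in a test that called 0 of 9602 genes, with 212 at an unadjusted p under 0.05.

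Within genes, the precipitates differed from input in which intronic site they held. The last-intron PAS of Papola was at 26.3 to 37.6 RPM in the 4 precipitates against 10.7 to 14 in the inputs, without overlap, while the intron 9 PAS was lower in the precipitate in 4 of 4 pairs, at 2.48 to 25.1 against 12.3 to 39.7. The last-intron PAS as a share of these 2 sites was 51.2% against 29.7% and 66.0% against 42.2% in NT, and 84.4% against 21.2% and 93.8% against 52.0% in AS. For Ssu72 the intronic share was 26.9% against 2.1% and 13.4% against 2.6% in NT, 6.9% against 3.8% in AS replicate 1, and 3.7% against not listed in AS replicate 2. An intronic share above input in all 4 pairs was found in 5.55% of 2017 genes, and Ssu72 was the 1 of the 4 members with intronic PASs in which it was. These site shares were not tested, and for the Papola sites no share over all genes was taken.

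The other genes of the pathway were followed as lists chosen with earlier results known. Over the 7 pairs of AS and NT, the 14 genes of the core cleavage complexes held 1 that rose and 2 that fell, where 2.44% of all genes were called, 1.67% up and 0.77% down. Fip1l1, a subunit of the specificity factor, rose by a log2 fold change of 0.56 (adjusted p = 0.0229). Cpsf2 of the same complex fell by 0.71 on the log2 scale (adjusted p = 0.0305), and Cstf2t, a paralog of a cleavage stimulation factor subunit, fell by 1.68 (adjusted p = 0.0092). The list's median was 0.09 against 0.00 over all genes. None of 14 tested of the 16 genes for tail enzymes, tail-binding proteins and regulators of the polymerase C-terminal domain passed.

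With differentiation, 3 core genes rose and 6 fell of 14, a share near the 62% of all genes called (32.4% up and 29.6% down). Nudt21, the small subunit of cleavage factor I, fell by 1.82 on the log2 scale, Cpsf6 by 0.94, Cstf2 by 0.70 and Cstf1 by 0.62, while Cstf2t rose by 0.62. Of the 16 tail and C-terminal domain genes, 3 rose and 5 fell, among them Papd5, a noncanonical poly(A) polymerase, with a log2 fold change of 1.21, and Ctdp1, a C-terminal domain phosphatase, with -1.39. The core list's median was -0.17 and that of the tail list -0.10, beside 0.03 over all genes. In the flow-through contrast, 4 core genes were higher and 2 lower of 14, and 2 tail genes higher and 8 lower of 16, where 23.2% of all genes were higher and 26.5% lower, with list medians of 0.03 and -0.69 beside -0.05 over all genes. At RC4 none of the 28 genes tested in these lists passed.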

How the data were processed

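The deposited 3′READS files hold raw counts of reads per PAS. Per the methods of the study, the authors used Cutadapt for trimming and bowtie2 (local, mm9) for alignment, required 2 or more nongenomic Ts at the end, and clustered cleavage sites within 24 nt. Only PASs with at least 5 reads are listed. The RNA-seq files hold counts of reads in coding sequences per gene symbol, which the authors aligned with STAR.

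Sites of all 38 libraries (99725 positions) were joined within 24 nt into 83916 clusters and assigned to protein-coding genes of GENCODE M1 (NCBIM37, the same assembly as mm9) with 4000 nt downstream. The 1063 clusters in more than 1 gene, and 25 readthrough models, were left out. Counts were tested with edgeR 4.0.16 in R 4.3.3 (quasi-likelihood, TMM, filterByExpr, Benjamini-Hochberg over all genes, threshold 0.05). The intronic share and the proximal-distal difference were tested as class by condition with at least 10 reads of each class. SE is the log2 fold change divided by the square root of F. DESeq2 1.42.0 was the alternative, and further alternatives were another normalization, no filter, 3′UTR PASs only, a replicate block and leaving out libraries. Scripts were tested on simulated data. Figures and tables were made with Python 3.11.15.

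Replicate numbers or sets paired the libraries where deviations from group means correlated in every pair, at 0.78 to 0.85 for total RNA, 0.70 to 0.89 for the 7 pairs and 0.67 to 0.80 for RC4. The main tests over the 7 pairs and RC4 held the pair as a block, and those of total RNA alone did not. Labeled and flow-through RNA came from the same cultures (0.19), and TIA1 precipitate and input from the same extract (0.36 in NT, 0.39 in AS). The 7 genes and the gene lists were chosen with earlier results of these data known. Named genes were the 7, for each the 2 genes most like it in level, and pathway genes that passed a test. Of the pathway genes that passed with differentiation, only some are named. RNA-seq ratios used size factors from genes with more than 5 reads in all 4 libraries. Intervals cover counting error only.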

Additional observations from a re-analysis of the deposited data

How the results depend on the processing

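Counts of called genes depended on the model. AS against NT over 7 pairs (209 genes) gave 324 with DESeq2, 3 without the block and 99 to 204 without 1 pair. Total RNA gave 0, 29 with the replicate block and 0 to 0 without 1 library. RC4 (116) gave 71 on 3′UTR PASs only, 356 with DESeq2, 0 without the block and 0 to 375 without 1 pair. TIA1 in NT (306) gave 1269 with DESeq2, 1043 with no filter, 1804 with the replicate block and 0 to 90 without 1 library. TIA1 in AS (52) gave 1089, 829 and 1670, 87 with median ratio factors, and 0 without 1 library. The AS-NT difference of TIA1 gave 0, and 3 with the block. For C2C12 the numbers share no stated culture, and the deviations of same-numbered libraries correlated at 0.05. For flow-through the block changed no call of the 7 genes. The cause of these differences was not tested.

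Intronic shares gave, for C2C12 (1), 207 with at least 50 reads, 349 with DESeq2, 0 with the block and 0 without 1 library; for flow-through (0), 46 and 85; for RC4 (0), 1 with DESeq2. Proximal-distal differences gave, for AS (1), 10 with DESeq2, 0 without the block and 0 to 1 without 1 pair. For C2C12 (3) they gave 618 with at least 50 reads, 213 with DESeq2, 0 with the block and 1 to 5 without 1 library, and for RC4 (0), 10 with DESeq2. RNA-seq genes at least 2-fold up and down at RC4, 1670 and 1600, were 565 and 4490 in CPM. Papola in C2C12D reversed to -0.60 on 3′UTR PASs only. Of 695 alternative values of the 7 genes, 673 kept their side of the threshold, 10 passed newly, 11 were lost and 1 reversed. Direction was compared only where a value passed, so values that did not pass may have changed sign. Depth limits Papolg, Clp1 and most intronic sites, which have few reads.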

Other observations

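Likeness of level was measured as Pearson's r of log2(CPM + 1) over the 38 libraries, which share line, fraction and library set, among 4862 genes with at least 10 reads in every library. Pcf11 was most like Alkbh1 (r = 0.90) and Yy1 (0.89), Rbbp6 most like Naa15 and Slc38a2 (both 0.87), and Ssu72 most like Txn2 (0.88) and Sumo3 (0.86). Clp1 was most like Htatsf1 (0.85) and Ccdc55 (0.82), and Pabpn1 most like Marcksl1 and Shc1 (both 0.81). Papolg was most like Ranbp2 (0.78) and Adamts1 (0.77), and Papola most like Rnf11 (0.76) and Tnfrsf23 (0.75). Among the 7 genes themselves, the closest pair was Rbbp6 and Papolg (r = 0.74), and the partners Pcf11 and Clp1 had an r of 0.05.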
